A study of Mus musculus with 12 samples.

Results

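NF-κB is a family of dimeric transcription factors, and 10 genes of its core were followed here in mouse embryonic fibroblasts (MEFs): the subunits Nfkb1, Nfkb2, Rel, Rela and Relb, and the inhibitors Nfkbia, Nfkbib, Nfkbie, Nfkbiz and Tnfaip3. They were taken by gene symbol from a table of RNA-Seq read counts, in which they make 10 of 24062 genes, and all 10 were among the 12154 genes that passed the filter on low counts and were tested. The study compared a line expressing shRenilla, a control shRNA against Renilla luciferase that has no target in these cells, with a line expressing shBruce#1, an shRNA against Birc6, the gene of the ubiquitin ligase BRUCE. Each line was sampled in full medium (FM) and after 2 h in a starvation medium without serum and amino acids (Starv), which gives 4 conditions, shRenilla FM, shRenilla Starv, shBruce FM and shBruce Starv, with 3 libraries each. Starvation therefore withdrew serum and amino acids together with any other component in which the media differ, and these effects cannot be told apart. A single line stood for each shRNA, so other differences between the lines cannot be told apart from the knockdown. The labels do not say whether the 3 replicates were separate cultures, so the p-values measure only the spread between these libraries, which may be technical. In bulk RNA, fewer cells that express a gene and less RNA of it per cell cannot be told apart.

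In resting cells NF-κB dimers are held in the cytoplasm by IκB proteins, and signals from receptors such as those for TNF and interleukin 1 activate a kinase that marks IκB for degradation, which frees the dimers to enter the nucleus. Among the genes they then switch on are those of their own inhibitors, so that transcripts such as Nfkbia and Tnfaip3 are widely used to read the state of the pathway and close a negative feedback loop. Fibroblasts respond to this pathway with chemokines, cytokines and adhesion molecules.

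The sequences just before the start sites of 5 members are shown because the promoters of several feedback inhibitors are textbook targets of NF-κB. Rela and Nfkbib serve here as members whose starvation difference did not pass the test in either line. Nfkb2 and Rel, which did not pass it in the main fit either, held matches to the κB consensus described below and are not shown. Each is the 250 bases before a RefSeq start site on GRCm38.p6, read 5′ to 3′ on the strand of the gene, with matches to the κB consensus in capitals.
Nfkbia, chr12:55492648-55492897, minus strand: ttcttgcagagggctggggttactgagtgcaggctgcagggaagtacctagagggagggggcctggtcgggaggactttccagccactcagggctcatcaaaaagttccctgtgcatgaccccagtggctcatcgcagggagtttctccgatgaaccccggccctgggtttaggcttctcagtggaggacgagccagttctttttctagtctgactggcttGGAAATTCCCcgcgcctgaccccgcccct
Nfkbie, chr17:45555450-45555699, plus strand: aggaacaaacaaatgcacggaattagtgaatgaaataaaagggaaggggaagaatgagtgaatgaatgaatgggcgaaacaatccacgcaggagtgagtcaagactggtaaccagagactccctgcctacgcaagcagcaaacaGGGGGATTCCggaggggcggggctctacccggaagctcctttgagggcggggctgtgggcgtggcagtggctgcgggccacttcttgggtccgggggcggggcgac
Tnfaip3, chr10:19015411-19015660, minus strand: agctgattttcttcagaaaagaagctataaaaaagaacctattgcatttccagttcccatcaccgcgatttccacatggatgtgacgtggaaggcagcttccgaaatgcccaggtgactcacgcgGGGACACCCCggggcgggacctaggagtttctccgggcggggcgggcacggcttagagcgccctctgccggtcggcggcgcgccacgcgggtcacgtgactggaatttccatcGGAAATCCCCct
Nfkbib, chr7:28766645-28766894, minus strand: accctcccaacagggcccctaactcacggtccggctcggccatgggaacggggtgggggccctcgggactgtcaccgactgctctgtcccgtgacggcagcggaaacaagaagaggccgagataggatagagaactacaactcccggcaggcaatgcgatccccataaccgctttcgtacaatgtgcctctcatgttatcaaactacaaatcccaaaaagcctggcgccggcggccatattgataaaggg
Rela, chr19:5637291-5637540, plus strand: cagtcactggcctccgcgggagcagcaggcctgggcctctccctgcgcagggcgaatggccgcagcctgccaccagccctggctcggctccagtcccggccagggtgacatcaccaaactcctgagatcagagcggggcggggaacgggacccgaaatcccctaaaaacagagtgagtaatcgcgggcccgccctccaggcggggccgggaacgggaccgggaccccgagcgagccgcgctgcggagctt

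The κB consensus searched is the general decamer that allows alternatives at several positions, on both strands, in the window from 250 bases before to 50 bases after each start, and a narrower form with the letters GGGNNTTTCC was searched in the same way. The narrower form allows any base at a place where the consensus requires A or G, so a match to it need not match the consensus. The consensus was found in 4.51% of all 32851 such windows and the narrower form in 1.63%. The RefSeq table held windows for 7 members, Nfkb2, Rel, Rela, Nfkbia, Nfkbib, Nfkbie and Tnfaip3, and 5 of these 7 had at least 1 window with a match, which was so for 5.14% of the 27025 genes in the table. Positions are given for the leftmost base of a match relative to the start. Nfkbia had a match at position -29, which reads GGGAATTTCC on the opposite strand, and Nfkbie had GGGGGATTCC at position -106. Tnfaip3 had GGGACACCCC at position -125 and, on the opposite strand, GGGGATTTCC at position -12 of the first of its 2 listed starts. Nfkb2 had a match at each of its 3 listed starts and Rel had overlapping matches at positions -92 and -91. In the main fit neither gene passed the starvation test in either line, though Nfkb2 did in shBruce under 3 of 22 other settings. The windows of Rela and Nfkbib held neither form. These matches describe the letters of the window only.

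Birc6 checked the labels first. Its normalized counts, which are counts scaled to a common library size, were 4682, 3273 and 5061 in shRenilla FM, 4759, 4712 and 2787 in shRenilla Starv, 1207, 1265 and 1390 in shBruce FM, and 1175, 703 and 1226 in shBruce Starv, so every shBruce library lay below every shRenilla library. The log2 fold change of shBruce against shRenilla was -1.98 in Starv (adjusted p = 0.0186) and -1.75 in FM (adjusted p = 0.0627, not past the level of 0.05; edgeR's quasi-likelihood test with Benjamini-Hochberg adjustment). Without shRenilla Starv replicate 1 or 2 the adjusted p in Starv was 0.110 or 0.115. Of 22 other settings of the fit, 8 called Birc6 in FM and 19 called it in Starv. With each library's trend against length and GC content removed, it was called in both media, at log2 -1.39 in FM and -1.44 in Starv. Total counts ran from 7717265 to 18510540, and the library at the low end, shBruce Starv replicate 1, stood apart from the other 11, which had at least 13200393. Values without it stand beside the main results that use it. Fibroblast markers summed to between 9380 and 13528 CPM, although Thy1, a common surface marker of fibroblasts, had at most 3 counts in any library. Markers of blood, endothelial and epithelial cells summed to at most 9.84, 4.54 and 1.04 CPM, and the blood list was mostly Cd68, with Cd3e at 0 throughout.

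Levels can be compared between genes per kilobase of exon sequence, here the union of all annotated exons. In shRenilla FM the order of normalized count per kilobase began with Nfkbia at 1462 ± 149 (SD, n = 3), followed by the subunits Nfkb2 at 1185 ± 75.9 and Rela at 952 ± 70.2, and the libraries of these neighbours did not overlap. Per kilobase of the longest transcript, Nfkbia at 1491 ± 152 and Nfkb2 at 1412 ± 90.5 did overlap. Per kilobase of exon union, Relb stood at 222 ± 11.8 and Nfkb1 at 203 ± 15.2, neighbours whose libraries overlapped, as did those of Nfkb1 and Nfkbib at 179 ± 13.4. Below them came Nfkbie at 163 ± 3.84, Tnfaip3 at 154 ± 5.72, whose libraries overlapped those of Nfkbie, and Nfkbiz at 77.7 ± 5.07. Rel, the subunit best known from lymphocytes, was the lowest at 18.8 ± 3.59. The place of Nfkb1 depended on the length used, since its exon union of 12.061 kb is far longer than its longest transcript of 4.149 kb, and per kilobase of that transcript its level in shRenilla FM was 590 ± 44.1. On that scale Tnfaip3 at 180 ± 6.66 lay above Nfkbie at 165 ± 3.89 without overlap. The orders that follow are per kilobase of exon union again. After starvation of the shRenilla line the order began with Nfkb2 at 1053 ± 48.8, Rela at 928 ± 52.4 and Nfkbia at 598 ± 80.4, again without overlap between neighbours. Relb at 207, Nfkb1 at 151 and Nfkbib at 138 followed, then Nfkbie at 64.0 and Tnfaip3 at 30.9, where only the libraries of Nfkb1 and Nfkbib overlapped. In that condition Nfkbiz, at 24.1 ± 2.30 per kilobase, was the lowest and overlapped Rel at 24.7 ± 7.68. In shBruce FM the order of the top 3 was Nfkbia at 1939 ± 41.3, Nfkb2 at 1228 ± 115 and Rela at 1068 ± 97.6, with overlap between the last pair. There Relb at 276, Nfkbib at 217, Nfkbie at 213 and Nfkb1 at 201 overlapped each with the next, and Tnfaip3 at 123, Nfkbiz at 71.2 and Rel at 12.2 stood apart below them. In shBruce Starv Nfkbia at 1232 ± 396, Rela at 1106 ± 171 and Nfkb2 at 976 ± 169 overlapped one another in that order. Relb at 266 overlapped Nfkbib at 200, and Nfkb1 at 106 overlapped Nfkbie at 67.1. Nfkbiz at 21.5 overlapped Tnfaip3 at 16.8, which overlapped Rel, the lowest at 12.5 ± 6.73.

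**Figure D1:**
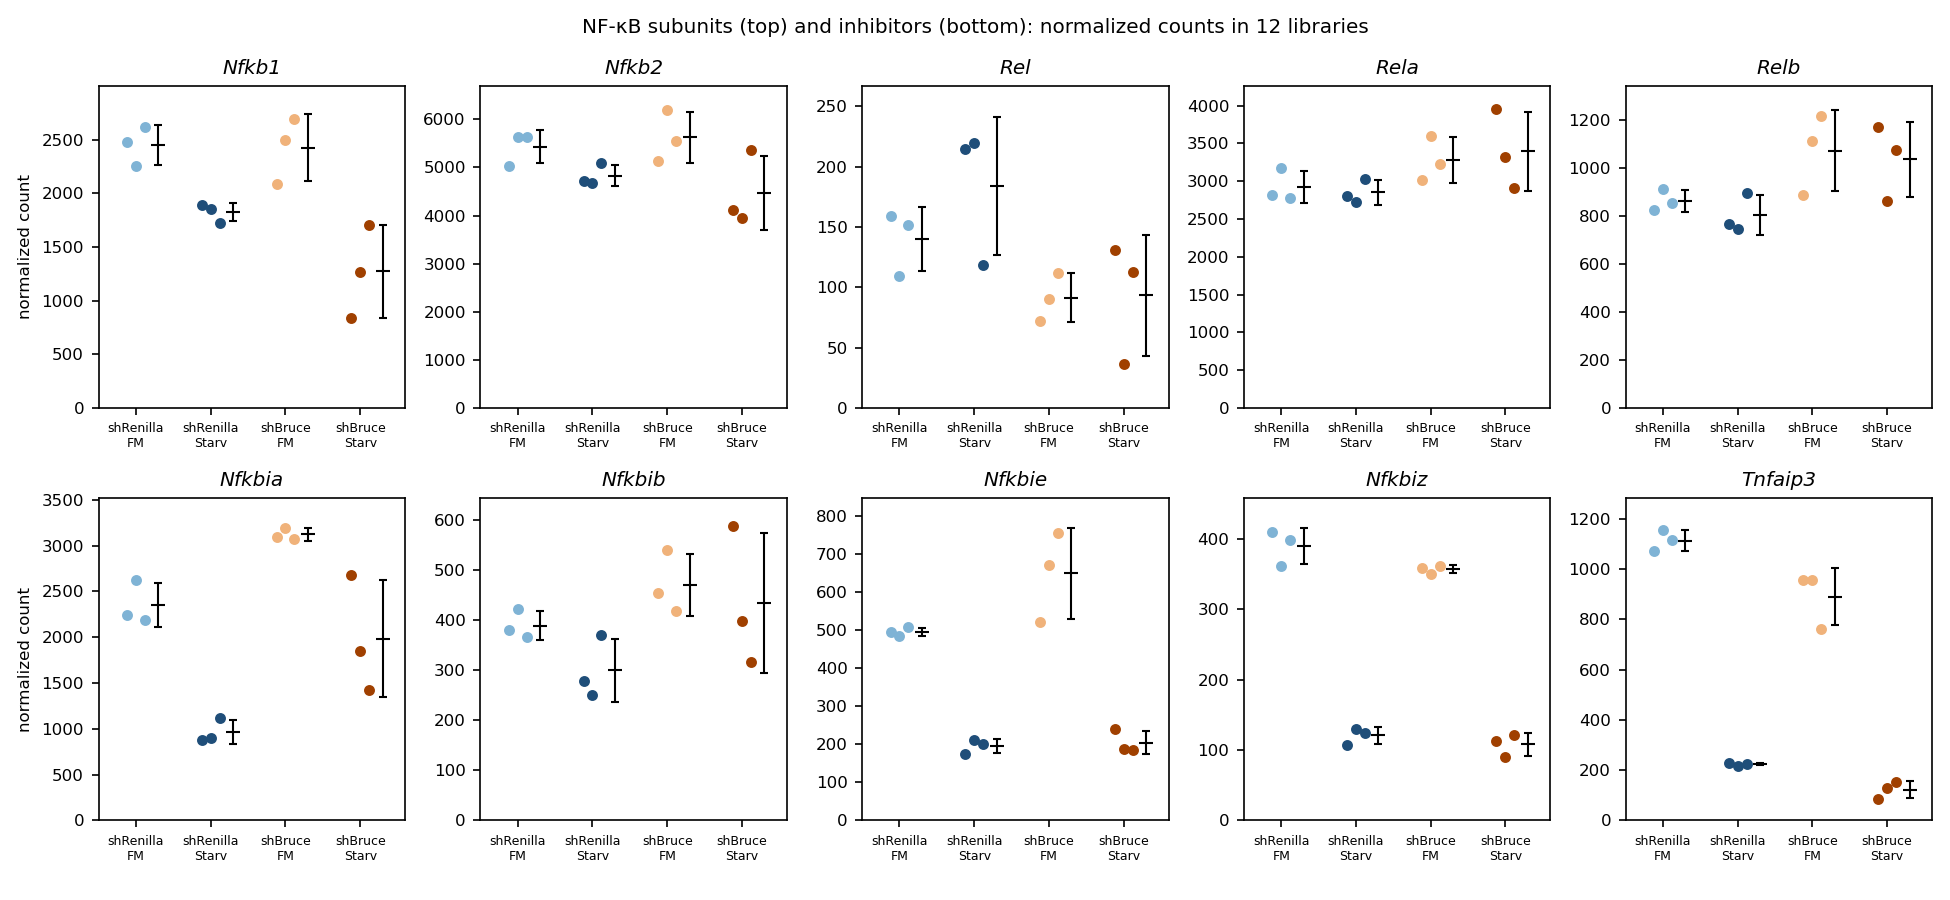
Normalized counts (y axis, from 0, own scale for each gene) of the 5 subunits (top) and the 5 inhibitors (bottom) in shRenilla and shBruce MEFs in FM and Starv; each point is a library in replicate order, and the bar beside the points is the mean ± SD of 3 libraries. The subunit Nfkb1 and the inhibitors Nfkbie, Nfkbiz and Tnfaip3 are lower in all Starv than in all FM libraries of both lines, while the points of Rela and Relb overlap between media.

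The first question was how starvation moved these transcripts in control cells. In the shRenilla line, 4 of the 10 members fell and none rose, and the 4 were the inhibitors Nfkbia, Nfkbie, Nfkbiz and Tnfaip3. The background is that 7.27% of all genes tested were called lower and 9.69% were called higher in this comparison. With 1 library left out, between 9.34% (without shRenilla Starv replicate 2) and 26.2% (without shBruce Starv replicate 1) of all genes were called in either direction, against 17.0% with all 12. None of the 5 subunits passed the test. The members were chosen with earlier results of these data known, so their counts beside those of all genes are a description only.

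Tnfaip3, which encodes the ubiquitin-editing enzyme A20 that restrains signalling to the IκB kinase (gene at chr10:19000910-19015657, minus strand, GRCm38), had normalized counts of 1072, 1154 and 1115 in shRenilla FM and of 227, 218 and 225 in shRenilla Starv. The media did not overlap, and the fold change was 4.98-fold lower in Starv (log2 -2.32, SE 0.17, adjusted p = 1.9e-06, edgeR). Nfkbiz (chr16:55811375-55838899, minus strand), whose product is an atypical nuclear IκB that modulates rather than sequesters the dimers, had 410, 361 and 399 in FM against 108, 130 and 125 in Starv. It was 3.23-fold lower without overlap (log2 -1.69, SE 0.14, adjusted p = 6.4e-06, edgeR).

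Nfkbie (chr17:45555703-45563169, plus strand) encodes the cytoplasmic inhibitor IκBε, and its normalized counts were 495, 484 and 507 in shRenilla FM and 175, 210 and 200 in shRenilla Starv. Its level fell 2.54-fold, and every Starv library was below every FM library (log2 -1.35, SE 0.16, adjusted p = 1.0e-04, edgeR). Nfkbia (chr12:55489410-55492647, minus strand) encodes IκBα, the inhibitor that is most rapidly degraded and resynthesized, and had 2247, 2627 and 2186 in FM against 877, 900 and 1112 in Starv. It was 2.44-fold lower without overlap (log2 -1.29, SE 0.19, adjusted p = 5.6e-04, edgeR). Each of these 4 genes was called under all 22 other settings of the fit. Nfkbib (chr7:28758251-28767512, minus strand), the gene of IκBβ, which turns over more slowly, differed from the other inhibitors in passing no test, with 380, 422 and 366 in FM, 278, 251 and 370 in Starv, overlapping media and a log2 fold change of -0.38 (95% interval -0.83 to 0.08, adjusted p = 0.245, edgeR).

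Among the subunits, Nfkb1 (chr3:135584655-135691547, minus strand), which encodes a precursor that is processed to a DNA-binding subunit, had normalized counts of 2482, 2253 and 2615 in shRenilla FM and of 1893, 1854 and 1726 in shRenilla Starv. The libraries did not overlap, but the log2 fold change of -0.43 did not pass the test (SE 0.20, adjusted p = 0.156, edgeR), and without shBruce Starv replicate 1, which enters only through the shared estimate of the spread, it did (-0.41, adjusted p = 0.0340). It was also called without shBruce Starv replicate 3 (adjusted p = 0.0459), when only the 6 shRenilla libraries were fitted (0.00328) and with the length and GC trends removed (0.0238). Nfkb2 (chr19:46304320-46312385, plus strand), the precursor of the non-canonical pathway, had 5029, 5639 and 5623 in FM and 4727, 4673 and 5084 in Starv, with a log2 fold change of -0.17 (95% interval -0.46 to 0.12). Rela (chr19:5637483-5648130, plus strand), the main transactivating subunit, had 2817, 3172 and 2783 in FM and 2799, 2724 and 3033 in Starv, and the log2 fold change was -0.04 (95% interval -0.31 to 0.24). For both genes the media overlapped. Relb (chr7:19606217-19629438, minus strand), the partner of the Nfkb2 product, had 823, 913 and 855 in FM and 765, 746 and 897 in Starv, with a log2 fold change of -0.11 (95% interval -0.43 to 0.21). Rel (chr11:23736847-23770970, minus strand), at far lower counts, had 159, 109 and 151 in FM and 215, 220 and 118 in Starv, a log2 fold change of 0.40 whose 95% interval ran from -0.37 to 1.16. Part of the exons of Nfkb2 and Nfkbib lies opposite genes on the other strand (11.6% of the bases of Nfkb2 opposite AC114539.1 and 14.5% of those of Nfkbib opposite Ccer2), and since the strand setting of the counting is not given in the sources used here, reads of these stretches cannot be assigned to a strand.

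**Figure D2:**
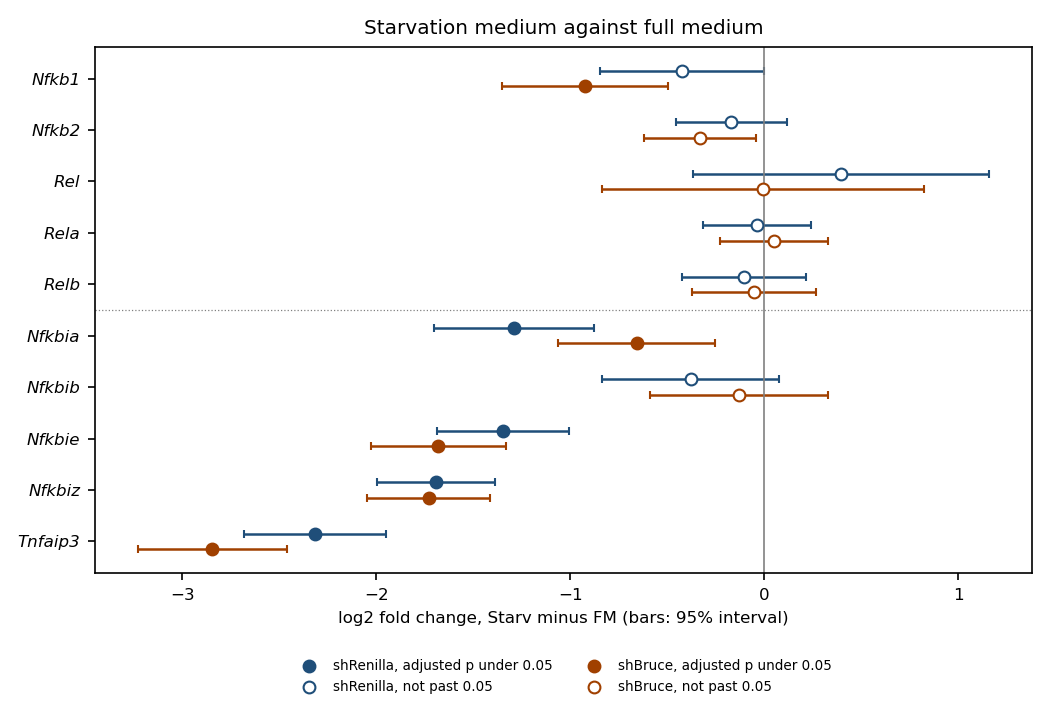
Log2 fold change of Starv against FM (x axis) for each member (y axis; subunits above the dotted line, inhibitors below) in the shRenilla line (blue) and the shBruce line (brown), with 95% intervals from the edgeR fit; filled points have an adjusted p under 0.05. Tnfaip3 is lowest at -2.32 and -2.84, while Rela is at -0.04 and 0.05.

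Starvation of the shBruce line was compared in the same way. Its fold changes come from other libraries than those of the shRenilla line, but all 12 libraries share an estimate of the spread. Here 5 of 10 members fell and none rose, namely the same 4 inhibitors and the subunit Nfkb1, beside 10.6% of all genes called lower and 12.4% called higher. Without shBruce Starv replicate 1 the count was again 5, beside 23.9% of all genes called in either direction. With 1 library left out, between 15.1% (without shBruce FM replicate 2) and 32.7% (without shBruce Starv replicate 3) of all genes were called, against 23.0% with all 12.

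Tnfaip3 had normalized counts of 955, 956 and 762 in shBruce FM and of 84.8, 127 and 152 in shBruce Starv, a 7.18-fold lower level without overlap (log2 -2.84, SE 0.18, adjusted p = 4.2e-07, edgeR). Nfkbiz had 359, 351 and 362 in FM and 113, 89.6 and 121 in Starv, and was 3.32-fold lower (log2 -1.73, SE 0.15, adjusted p = 6.0e-06, edgeR). Nfkbie had 521, 671 and 757 in FM and 240, 189 and 184 in Starv, and was 3.21-fold lower (log2 -1.68, SE 0.16, adjusted p = 1.7e-05, edgeR). For these genes every Starv library lay far below every FM library, and each was called under all 22 other settings. The log2 fold changes were -2.68 for Tnfaip3, -1.77 for Nfkbiz and -1.82 for Nfkbie without shBruce Starv replicate 1.

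Nfkbia gave a smaller and less stable difference in this line. Its normalized counts were 3093, 3197 and 3073 in shBruce FM and 2677, 1852 and 1422 in shBruce Starv, so the Starv libraries were all lower, with a wide spread among them. The log2 fold change was -0.66 (SE 0.19, adjusted p = 0.0235, edgeR) and became -0.95 (adjusted p = 6.3e-04) without shBruce Starv replicate 1, the shallow library, which had the highest Starv count. Its call was lost in 4 of the 22 other settings, where the adjusted p reached at most 0.115: without shBruce FM replicate 1 (0.0579) or replicate 2 (0.0663), without shBruce Starv replicate 2 (0.0603), and when only the 6 libraries compared were fitted (0.115). Nfkb1 had 2090, 2493 and 2697 in FM and 842, 1270 and 1707 in Starv, without overlap, and its log2 fold change was -0.93 (SE 0.20, adjusted p = 0.00496, edgeR). The shallow library had the lowest Nfkb1 count, and without it the log2 fold change was -0.72 (adjusted p = 0.00414); fitting only the 6 libraries compared gave an adjusted p of 0.0519.

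The other subunits and Nfkbib did not pass the test in the shBruce line. Nfkb2 had 5142, 6190 and 5552 in FM and 4116, 3939 and 5361 in Starv (log2 -0.33, adjusted p = 0.0899, edgeR), with overlap through the third Starv library, without which it was called (-0.49, adjusted p = 0.00766). Nfkb2 was also called with the length and GC trends removed (-0.33, adjusted p = 0.0300) and with the replicate block as well (-0.34, adjusted p = 0.0289). Rela had 3014, 3605 and 3227 in FM and 3956, 3320 and 2913 in Starv (log2 0.05, 95% interval -0.23 to 0.33). Relb had 889, 1110 and 1217 in FM and 1171, 862 and 1073 in Starv (log2 -0.05, 95% interval -0.37 to 0.27). Rel was low and scattered, with 72.2, 90.0 and 112 in FM and 131, 36.3 and 112 in Starv, and its 95% interval of -0.84 to 0.82 on the log2 scale leaves room for sizeable changes either way. Nfkbib had 454, 540 and 420 in FM and 589, 399 and 316 in Starv (log2 -0.13, 95% interval -0.59 to 0.33). These genes were again not called without shBruce Starv replicate 1, where Nfkbib was at -0.41 (adjusted p = 0.114, edgeR), Rel at -0.30, Nfkb2 at -0.29, Relb at -0.16 and Rela, with its sign turned, at -0.09.

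Over both lines, single values were also tested by an exact permutation test of Starv against FM that permuted libraries within each line only (two-sided, unadjusted, smallest possible p 0.005). The mean log2 difference was -2.61 for Tnfaip3, -1.72 for Nfkbiz, -1.51 for Nfkbie, -0.998 for Nfkbia and -0.70 for Nfkb1, each at that smallest p of 0.005 and lower in 3 of 3 Starv libraries of both lines. For Nfkb2 the mean log2 difference was -0.25 (exact p = 0.02), and for Nfkbib, Relb, Rel and Rela the exact p was 0.115, 0.435, 0.785 and 0.975. Without shBruce Starv replicate 1, a setting chosen after seeing the data, the first 5 genes kept an exact p of 0.005, with Nfkb1 at -0.57, and Nfkb2 had an exact p of 0.03, while Nfkbib came to -0.40 (exact p = 0.015). Within a single line the 3 against 3 permutation test cannot give a p under 0.1.

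Whether starvation moved the members differently in the 2 lines was tested by the interaction of line and medium. By edgeR none of the 10 members was called lower or higher, beside 0.0% of all genes in each direction, and DESeq2 and limma-voom called none either. At an unadjusted p under 0.05 there were 474 genes, and 2 members were among them. For Nfkbia the log2 fold change was less negative in the shBruce line by 0.63 (95% interval 0.06 to 1.21, adjusted p = 0.806, edgeR), which was 0.33 without shBruce Starv replicate 1. For Tnfaip3 it was more negative, with a difference of -0.53 (95% interval -1.04 to -0.02, adjusted p = 0.806, edgeR), which was -0.38 without that library. The widest interval was that of Rel, from -1.53 to 0.73.

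The members were summed by role, in the subunit and inhibitor groups named at the start, as a description only. The scale is normalized counts per kilobase of exon union. These groups do not divide the members cleanly by function. Nfkb1 and Nfkb2 enter as subunits though they encode precursors. Tnfaip3, which encodes an enzyme, and Nfkbiz, whose product modulates rather than sequesters the dimers, enter as inhibitors. The 5 subunits together had 2581 ± 124 (SD, n = 3) in shRenilla FM, 2364 ± 108 in shRenilla Starv, 2785 ± 258 in shBruce FM and 2466 ± 168 in shBruce Starv. The 5 inhibitors together had 2036 ± 158, 855 ± 111, 2564 ± 81.8 and 1538 ± 466 in the same order. Within each line the inhibitor sums did not overlap between the media, whereas the subunit sums did. The means in shBruce Starv were 2411 for the subunits and 1283 for the inhibitors without replicate 1, a setting chosen after seeing the data.

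The ratio of inhibitor to subunit transcripts was 0.801, 0.821 and 0.744 in the shRenilla FM libraries and 0.337, 0.351 and 0.395 in the shRenilla Starv libraries. It was 0.997, 0.877 and 0.899 in shBruce FM and 0.795, 0.630 and 0.445 in shBruce Starv. Within each line the media did not overlap, and all shBruce Starv libraries lay above all shRenilla Starv libraries. The highest of the shBruce Starv values is that of the shallow library, and the mean of the other 2 is 0.537. Nfkbia makes most of the inhibitor sum, so the spread of the ratio in shBruce Starv follows the spread of Nfkbia. The ratio was computed per kilobase of exon union only. On that length Nfkb1 enters with 203 in shRenilla FM, against 590 per kilobase of its longest transcript. The length and GC trends described below were not removed from the ratio. The ratio counts transcripts and says nothing of protein.

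**Figure D3:**
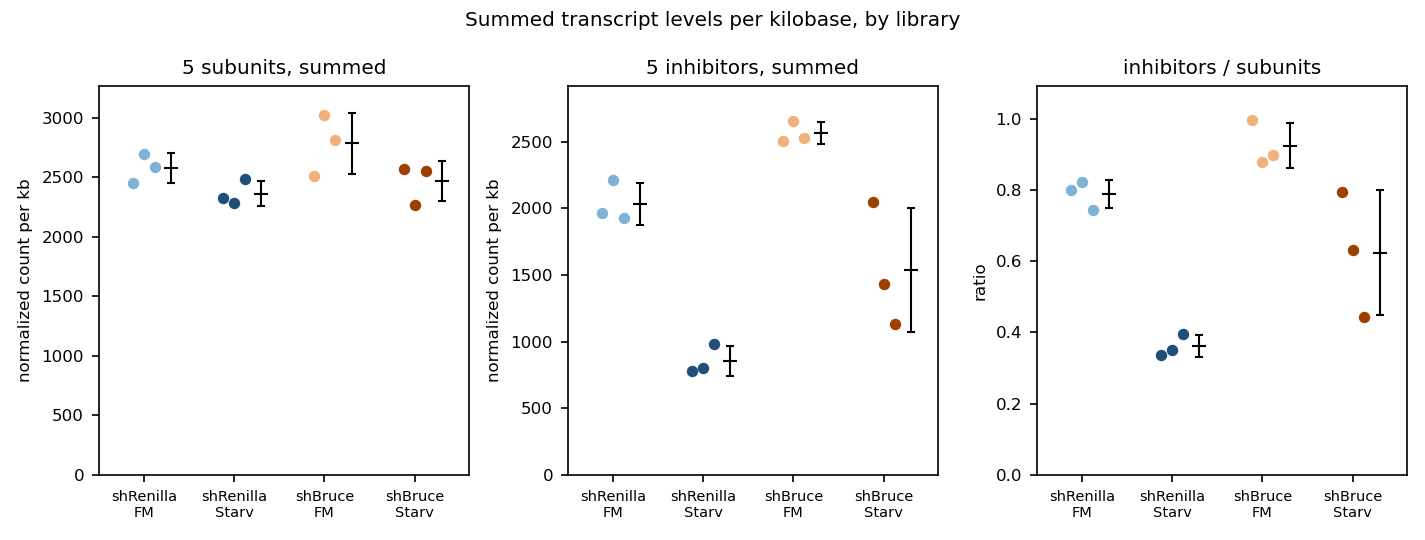
Sums of normalized count per kilobase over the 5 subunits (left) and the 5 inhibitors (middle), and the ratio of the sums (right), in the 4 conditions; points are libraries and bars the mean ± SD of 3 libraries, on axes from 0. The ratio has means of 0.789 and 0.361 in shRenilla FM and Starv and of 0.924 and 0.623 in shBruce FM and Starv.

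The comparison of shBruce with shRenilla asks what the knockdown line did to these transcripts. These comparisons use the same libraries as those of starvation above, so they are not separate evidence. In FM edgeR called none of the 10 members lower or higher, beside 0.0% of all genes in either direction, while 1750 genes, among them 2 members, had an unadjusted p under 0.05. DESeq2 called 76 genes and limma-voom 0, and neither called a member. Nfkbia was the first of the 2 members, with 2247, 2627 and 2186 in shRenilla FM against 3093, 3197 and 3073 in shBruce FM, higher in 3 of 3 libraries (log2 0.41, SE 0.19, adjusted p = 0.344, edgeR). It passed the test only when the 6 FM libraries were fitted alone (adjusted p = 0.0480). Nfkbie, the second, was also higher without overlap (log2 0.39, SE 0.15, adjusted p = 0.309, edgeR). Tnfaip3 was lower in all 3 shBruce FM libraries (log2 -0.32, SE 0.16, adjusted p = 0.364, edgeR). For the other members the lines overlapped, with log2 fold changes from -0.61 for Rel to 0.31 for Relb.

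In Starv 2 of the 10 members were called, 1 lower and 1 higher, beside 11.2% of all genes called lower and 12.8% called higher, so the share of members called was close to that of all genes. Nfkbia, with 877, 900 and 1112 in shRenilla Starv and 2677, 1852 and 1422 in shBruce Starv, was 2.06-fold higher in the shBruce line without overlap (log2 1.04, SE 0.19, adjusted p = 0.0225, edgeR). Tnfaip3, with 227, 218 and 225 against 84.8, 127 and 152, was 1.80-fold lower without overlap (log2 -0.85, SE 0.18, adjusted p = 0.0225, edgeR). These inhibitors, which both fell with starvation, thus lay on opposite sides of the control line. Without shBruce Starv replicate 1 both were still called, with smaller log2 fold changes of 0.75 and -0.69 (adjusted p = 0.0483 for each).

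The calls of this comparison depended on the libraries and on the fit. Nfkbia was called in 17 and Tnfaip3 in 16 of the 22 other settings, with an adjusted p of at most 0.117 for each. Neither was called without shRenilla Starv replicate 1 (adjusted p = 0.110) or replicate 2 (0.115), without shBruce Starv replicate 2 (0.0530), or when only the 6 Starv libraries were fitted (0.117). Of all genes, 0.0%, 0.0%, 0.122% and 0.0% were called in these settings. Without shBruce Starv replicate 3, 6 members were called (Nfkb1, Nfkbia, Nfkbib, Rel, Rela and Tnfaip3), beside 46.7% of all genes. Without shRenilla Starv replicate 3, 4 were (Nfkbia, Nfkbib, Rel and Tnfaip3), beside 23.9% of all genes.

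Transcript length moved with the line in the same libraries. The median centred log2 level of the 1892 genes with a longest transcript under 2 kb, minus that of the 2520 genes with one over 5 kb, was -0.62, -0.61 and -0.11 in the shRenilla Starv libraries and 0.65, 0.66 and -0.11 in the shBruce Starv libraries. In FM it was -0.26, 0.03 and -0.37 for shRenilla and 0.23, 0.32 and 0.21 for shBruce. The longest transcript of Nfkbia has 1.578 kb and that of Tnfaip3 6.199 kb. When each library's trend against length and GC content was removed, the log2 fold change in Starv was 0.66 for Nfkbia, still called (adjusted p = 0.0323), and -0.48 for Tnfaip3, no longer called (adjusted p = 0.0906); with the replicate number as a block as well, Nfkbia was at 0.65 and not called (adjusted p = 0.0630). In the third Starv library of each line, which had the same value of -0.11, the normalized counts were 1112 in shRenilla and 1422 in shBruce for Nfkbia and 225 and 152 for Tnfaip3. The starvation differences of the 4 inhibitors were called in both lines with the trends removed, for example at log2 -2.46 and -2.85 for Tnfaip3.

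The remaining members gave no call between the lines in Starv. Rel had 215, 220 and 118 in shRenilla Starv and 131, 36.3 and 112 in shBruce Starv, overlapping through a single library (log2 -1.02, SE 0.37, adjusted p = 0.0614, edgeR), and both DESeq2 and limma-voom called it (adjusted p = 0.0349 and 0.0452). With the length and GC trends removed it was at -0.52 (adjusted p = 0.265) and, with the replicate block as well, at -0.54 (0.279), and without shBruce Starv replicate 1 it was at -1.31 (0.0649). Nfkb1 was lower in all 3 shBruce libraries (log2 -0.51, SE 0.20, adjusted p = 0.0709, edgeR) and was called by DESeq2 (adjusted p = 0.0462). Its log2 fold change was -0.31 (adjusted p = 0.160) without shBruce Starv replicate 1, and -0.27 (0.248) with the trends removed. Nfkbib at log2 0.52 and Relb at 0.37 had adjusted p of 0.0844 and 0.0847, edgeR. Rela was at 0.25 (95% interval -0.03 to 0.53) and Nfkb2 at -0.11 (-0.40 to 0.18). Leaving out shBruce Starv replicate 1 put Nfkbib at 0.24 (adjusted p = 0.353, edgeR), Relb at 0.26, Rela at 0.11 and Nfkb2 at -0.07. With the length and GC trends removed Nfkbib was at 0.11 (adjusted p = 0.626), Relb at 0.23, Rela, with its sign turned, at -0.04 and Nfkb2 at -0.23. Nfkbie and Nfkbiz, both lower after starvation in each line, overlapped between the lines, with log2 fold changes of 0.06 (95% interval -0.29 to 0.41) and -0.16 (-0.48 to 0.16). Without that library they were at -0.08 and -0.21.

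**Figure D4:**
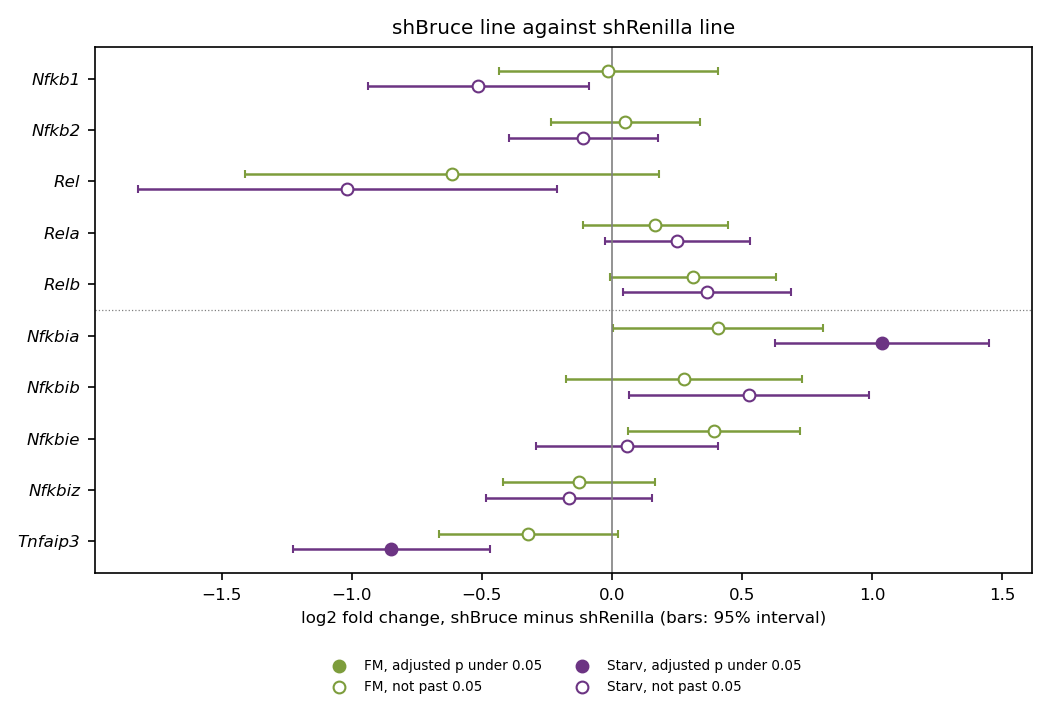
Log2 fold change of shBruce against shRenilla (x axis) for each member (y axis; subunits above the dotted line, inhibitors below) in FM (green) and Starv (purple), with 95% intervals from the edgeR fit; filled points have an adjusted p under 0.05. The filled points are Nfkbia at 1.04 and Tnfaip3 at -0.85 in Starv.

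Over both media, an exact permutation test of shBruce against shRenilla that permuted libraries within each medium (two-sided, unadjusted, smallest possible p 0.005) gave a mean log2 difference of 0.71 for Nfkbia and of -0.63 for Tnfaip3, each at exact p = 0.005. The other values were -0.87 for Rel (exact p = 0.02), 0.33 for Relb (exact p = 0.025), 0.20 for Rela (exact p = 0.03) and 0.39 for Nfkbib (exact p = 0.035). Nfkbie, Nfkbiz, Nfkb1 and Nfkb2 had an exact p of 0.12, 0.08, 0.125 and 0.67. Without shBruce Starv replicate 1, Nfkbia and Tnfaip3 kept an exact p of 0.005 at smaller differences of 0.59 and -0.51, Rel (-1.05) and Relb (0.28) had an exact p of 0.015 and 0.04, and Rela (0.15) and Nfkbib (0.27) had an exact p of 0.055 and 0.09. The lengths above move with the line here too. With the length and GC trends removed, the log2 fold changes of shBruce against shRenilla in FM and in Starv were 0.24 and 0.66 for Nfkbia, -0.09 and -0.48 for Tnfaip3, -0.26 and -0.52 for Rel, and 0.20 and 0.23 for Relb. For Nfkbib they were 0.05 and 0.11, and for Rela -0.01 and -0.04, so that these differences were smaller than without the removal and that of Rela changed sign.

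The rest of the pathway was read through 3 lists, drawn from general knowledge but chosen with earlier results of these data known. Their counts beside those of all genes are therefore a description and not independent evidence. The first held 30 genes often used to read NF-κB activity, of which 19 passed the filter on low counts; the other 11, among them Il6, Tnf, Cxcl1 and Icam1, were below it. With starvation, 14 of the 19 fell in the shRenilla line and 14 fell in the shBruce line, and none rose, with median log2 fold changes of -1.06 and -1.15 where the median over all genes tested was -0.01 and 0.02. Beside them stand 7.27% and 10.6% of all genes called lower. Many of these genes also answer to serum and growth factors, so that the list is not specific to NF-κB. With 1 library left out, 11 to 15 of the 19 fell in shRenilla and 13 to 15 in shBruce, and at most 1 rose in either line.

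Ccl2, a chemokine for monocytes, had 1716, 1576 and 1522 in shRenilla FM and 189, 162 and 177 in shRenilla Starv (log2 -3.19, adjusted p = 6.4e-06, edgeR). Lif, a cytokine of the interleukin 6 family, had 1059, 1134 and 1152 against 137, 131 and 117 (log2 -3.12, adjusted p = 6.1e-07, edgeR), and Ier3, an immediate-early gene, had 805, 981 and 775 against 121, 118 and 132 (log2 -2.79, adjusted p = 1.3e-05, edgeR). In all 3 genes the media were far apart. In the shBruce line the named genes were Ptgs2, the inducible prostaglandin synthase, at log2 -3.75, Lif at -3.63 and Ccl2 at -3.45 (adjusted p of 3.5e-07, 1.7e-07 and 3.5e-06, edgeR).

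Between the lines in Starv, 3 of the 19 were lower and none was higher, beside 11.2% of all genes called lower. Ptgs2 had 980, 1081 and 851 in shRenilla Starv and 279, 420 and 294 in shBruce Starv (log2 -1.54, adjusted p = 0.0225, edgeR). The other 2 were the adhesion molecule Vcam1 at -0.59 and the macrophage growth factor Csf1 at -0.35 (adjusted p = 0.0271 and 0.0469, edgeR). With shBruce Starv replicate 1 left out, 1 of the 19 was called lower, beside 4.68% of all genes called in either direction. Without shRenilla Starv replicate 1 or 2, or with only the Starv libraries fitted, none of the 3 lists had a called gene in this comparison, beside 0.0% of all genes. With the length and GC trends removed and the replicate block added, Birc6 was the only gene called of 12154. None of the 19 was then called. These settings were applied to the lists after seeing the data. In FM edgeR called none of the 19, with 2 at an unadjusted p under 0.05.

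**Figure D5:**
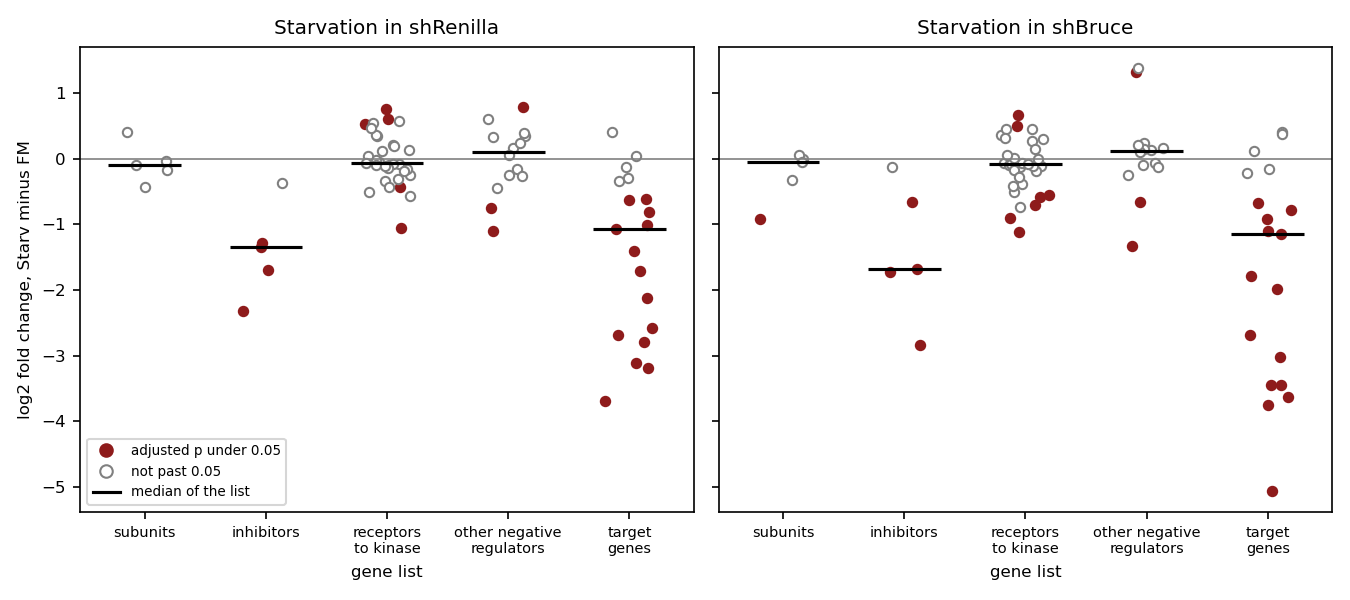
Log2 fold change of Starv against FM (y axis) for each tested gene of 5 lists (x axis) in the shRenilla line (left) and the shBruce line (right); filled points have an adjusted p under 0.05 and the horizontal bars are list medians. The medians of the inhibitors are -1.35 and -1.68 and those of the target genes -1.06 and -1.15, while those of the subunits are -0.11 and -0.05.

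The second list held 32 genes from receptors to the IκB kinase, all tested. In the shRenilla line 3 rose and 2 fell with starvation (median log2 fold change -0.07), and in the shBruce line 2 rose and 5 fell (median -0.09), against a background of 9.69% and 12.4% called higher and 7.27% and 10.6% called lower. Traf1, an adaptor that is itself a target of the pathway, fell in both lines, from 353, 388 and 331 to 134, 181 and 198 in shRenilla (log2 -1.06, adjusted p = 0.0178, edgeR) and with a log2 fold change of -1.11 in shBruce (adjusted p = 0.0113, edgeR). Tab1, an adaptor of the kinase TAK1, rose in both, at log2 0.60 and 0.67 (adjusted p = 0.00468 and 0.00199, edgeR). In the shRenilla line the lipopolysaccharide receptor Tlr4 (0.76) and the kinase scaffold Ikbkg (0.53) also rose, and Map3k14, the kinase of the non-canonical pathway, fell (-0.44). In the shBruce line Traf2 rose (0.49) and Traf5 (-0.90) and Traf3 (-0.71) fell. Between the lines in Starv, 2 were higher, Sharpin (0.37) and Traf2 (0.34), and 8 were lower, led by Il1rap (-0.98), Tlr4 (-0.87) and Birc3 (-0.80), beside 12.8% of all genes called higher and 11.2% called lower. When shBruce Starv replicate 1 was left out, none was higher and 3 were lower. With the length and GC trends removed, 1 was higher and 3 were lower, beside 8.27% of all genes called. With the replicate block as well, none of the list was called, beside 0.00823% of all genes. For starvation, 1 to 7 rose and 0 to 5 fell in shRenilla with 1 library left out, and 2 to 3 rose and 3 to 10 fell in shBruce.

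The third list held 15 other negative regulators and atypical IκB genes, of which 14 were tested and Nfkbid was below the filter. Here 1 rose and 2 fell in each line with starvation, and the median log2 fold changes were 0.11 and 0.12. Beside these counts, 9.69% and 12.4% of all genes were called higher and 7.27% and 10.6% lower in shRenilla and shBruce, and with 1 library left out 0 to 3 genes of the list rose and 2 to 3 fell in shRenilla. Bcl3, an atypical nuclear IκB, had 165, 202 and 199 in shRenilla FM and 75.0, 71.0 and 117 in shRenilla Starv (log2 -1.11, adjusted p = 0.00284, edgeR) and fell by 1.33 on the log2 scale in shBruce (adjusted p = 8.3e-04, edgeR). Nkiras1, a Ras-like protein that binds IκB, fell at log2 -0.75 and -0.67. Nfkbil1, an IκB-like gene, rose at log2 0.78 and 1.32 (adjusted p = 0.00913 and 2.6e-04, edgeR). Between the lines in Starv, 4 were higher, led by Nfkbil1 (0.82), Otulin (0.72) and Commd1 (0.64), and 2 were lower, the deubiquitinase Cyld (-0.67) and the ubiquitin ligase Itch (-0.66), beside 12.8% of all genes called higher and 11.2% called lower. The libraries of Otulin and of Itch overlapped between the lines. When shBruce Starv replicate 1 was left out, 2 were higher and 1 was lower. With the length and GC trends removed, 2 were higher and none was lower, and with the replicate block as well none was called. In FM edgeR called none of either list, with 8 of 32 and 3 of 14 at an unadjusted p under 0.05, and the interaction called none of the 3 lists, with 0, 0 and 2 genes at that level for the receptors, the other regulators and the targets.

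The members with the widest range of condition means were Tnfaip3, Nfkbiz and Nfkbie, and the genes whose pattern over the 12 libraries was nearest to theirs were found among 10364 genes by the root-mean-square difference of log2 normalized counts, each gene centred on its own mean. For Tnfaip3 they were F3, the tissue factor gene (0.27), Dusp5, a phosphatase of ERK kinases (0.30), and 2610203C20Rik (0.31). F3 had mean normalized counts of 2440 and 465 in shRenilla FM and Starv and of 1527 and 230 in shBruce FM and Starv. For Nfkbiz they were Fosl2, an AP-1 subunit (0.15), Csf1 (0.16) and Arl4c, a small GTPase (0.16). For Nfkbie they were the chemokine Cx3cl1 (0.18), the serum response factor Srf (0.18) and Nod2, a sensor of bacterial peptides (0.18). These are descriptions over libraries that share their condition, with no test.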

How the data were processed

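RNA-Seq libraries of 3 replicates in each of 4 conditions were analysed. The authors enriched poly(A) RNA, removed rRNA reads, mapped single-end reads to mm10 with STAR 2.4.0d and deposited read counts per gene from HTSeq 0.5.4p3, without normalization; annotation, strand setting and overlap mode are not given in the sources used here. The notes of the submitters also name edgeR, limma and R 3.2.0. All 12 columns were used (0 left out).

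From these counts, normalized counts, fold changes and tests were computed here with edgeR 4.0.16 in R 4.3.3: TMM, filterByExpr, a joint quasi-likelihood fit of a mean for each condition over 12 libraries, two-sided tests and Benjamini-Hochberg adjustment over the 12154 genes tested at a level of 0.05. To normalize, each count was divided by the effective size (total times TMM factor) of its library, scaled so that the 12 sizes have a geometric mean of 1. The study used limma-voom, which was run as an alternative (limma 3.58.1), as was DESeq2 1.42.0. The fit was tested on simulated data. Exact permutation tests used log2 normalized counts. Total counts were 7717265 to 18510540 per library, and errors are the SD of replicates or the SE of the fit, with intervals at 95%. Positions and lengths are those of GENCODE M21 (GRCm38), where 22724 symbols were found as such and 934 under an older name; promoter windows came from RefSeq on GRCm38.p6. The members, the 3 pathway lists, the marker lists and the tests were chosen with earlier results of these data known. The text names all members, Birc6 and, from each list and comparison, up to 3 rising and 3 falling genes with the largest change among those called whose mean normalized count reached 50 in the higher condition, and the 3 genes nearest in pattern to the 3 members of widest range, with a pseudocount of 0.5 before the log and a mean of at least 50. Genes named as below the filter, and those named with the marker lists, lie outside this rule. The alternatives were DESeq2 size factors, upper-quartile normalization, DESeq2's Wald test, limma-voom, no filter, at least 10 counts in every library, a fit of only the groups compared, a replicate block, removal of each library's trend against length and GC content (spline with 4 degrees of freedom, 12051 genes) alone and with the block, each of the 12 libraries left out, and a change of at least 2-fold. After seeing the data, the same settings were applied to the 3 lists, and the exact tests and sums by role were repeated without shBruce Starv replicate 1. Levels per kilobase were also computed with the longest transcript. Python 3.11.15 with pandas 2.3.3, numpy 2.4.6 and, for plots, matplotlib 3.10.9 did the rest.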

Additional observations from a re-analysis of the deposited data

How the results depend on the processing

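Of the 10 members, 4 were called for starvation in shRenilla (4 to 5 with 1 library left out), 5 in shBruce (4 to 6), 0 for the knockdown in FM (0 to 0), 2 in Starv (0 to 6) and 0 for the interaction (0 to 0). With only the groups compared fitted, the counts became 3 for starvation in shBruce, 1 for the knockdown in FM and 0 in Starv. Beside them 8.11%, 5.11% and 0.0% of all genes were called. At least 2-fold left 3 for starvation in shBruce and 1 for the knockdown in Starv, beside 7.57% and 4.21% of all genes. For the knockdown in Starv DESeq2 called 4, beside 31.1% of all genes. Removal of the length and GC trends left 1 there (8.27%), and that removal with the replicate block left 0 (0.00823%). With 1 library left out, the share of all genes called ran from 9.34% to 26.2% for starvation in shRenilla (17.0% with all), 15.1% to 32.7% in shBruce (23.0%), 0.0% to 0.261% for the knockdown in FM (0.0%) and 0.0% to 46.7% in Starv (23.9%). Same-numbered libraries varied together no more than others. The correlations of their deviations from the condition means ran from -0.46 to 0.35 over 18 pairs (median -0.02). Over the 36 other pairs they ran from -0.38 to 0.51 (median -0.01). Deviations within 3 libraries cannot decide whether same-numbered libraries share a batch, which was not tested. With the replicate block alone the 5 counts were 4, 5, 0, 2 and 0, beside 14.6%, 20.2%, 0.0%, 15.9% and 0.0% of all genes. The cause of these changes was not tested. Sign changes occurred only in members that neither fit called. With the length and GC trends removed, without and with the block, they were for Rela 0.017 and 0.017 (starvation in shRenilla), -0.014 and -0.016 (starvation in shBruce), -0.011 and -0.011 (knockdown in FM), -0.043 and -0.044 (knockdown in Starv) and -0.031 and -0.033 (interaction), for Nfkb1 0.16 and 0.15 and for Nfkb2 -0.046 and -0.045 (knockdown in FM), for Nfkbie -0.098 and -0.098 (knockdown in Starv), and for Nfkbiz 0.020 and 0.016 (interaction). Upper-quartile normalization gave 0.044 for Rela in shRenilla, 0.075 for Rel and 0.033 for Relb in shBruce, and 0.0052 for Nfkb1 (knockdown in FM). For Rel in shBruce, DESeq2 gave 0.010, at least 10 counts in every library 0.0063 and only the groups compared 0.016. With a library left out, the ranges that crossed 0 were, for starvation in shRenilla, Rela -0.083 to 0.016; for starvation in shBruce, Rel -0.30 to 0.40, Rela -0.089 to 0.14, Relb -0.17 to 0.061 and Nfkbib -0.41 to 0.052; for the knockdown in FM, Nfkb1 -0.097 to 0.083 and Nfkb2 -0.023 to 0.11; for the knockdown in Starv, Nfkbie -0.079 to 0.12; and for the interaction, Rel -0.71 to 0.0007, Rela -0.066 to 0.18, Relb -0.068 to 0.17, Nfkbib -0.048 to 0.43 and Nfkbiz -0.15 to 0.084. In the exact tests over both lines, leaving out shBruce Starv replicate 1 turned the starvation difference of Rela to -0.054 and that of Rel to -0.068. Rel had counts of 34 to 269 reads.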
